A study of Schizosaccharomyces pombe with 6 samples.

Results

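Small RNAs of 2 wild-type strains of the fission yeast Schizosaccharomyces pombe, spb80 and spb75, were compared during growth at 30 °C in YES, a rich medium. The comparison used 3 of the 6 libraries of the series, 1 of spb80 and 2 of spb75, chosen by the strain and temperature in their labels. All 3 are labelled wt and carry no further allele or treatment, and the sources used here do not give the auxotrophic markers, mating type or parentage of either strain. The other 3 libraries were 1 of strain spb309, labelled dcr delta, at 30 °C and 1 of spb75 after each of 8 hours and 7 days at 37 °C, and their values are given only beside the differences. Cells were harvested at an optical density of 0.5, and RNA of 18 to 28 nt was purified from gels and sequenced.

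Fission yeast makes short interfering RNAs by cutting double-stranded RNA with the nuclease Dicer, mostly at the repeats that flank the centromeres, and an Argonaute protein carries them to matching transcripts, where they direct heterochromatin. A library of RNA this short also holds fragments of messenger, transfer and ribosomal RNA, so a region rich in reads may be a place where short interfering RNA is made or a place where a longer RNA leaves a stable piece. Wild-type laboratory strains are often not isogenic: they differ in mating type and in auxotrophic markers such as ade6, leu1, ura4 and his genes.

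The deposited list holds 11033 regions rich in reads (peaks), shared by all libraries. Reads over these peaks came to 11037742 in spb80 and to 15723318 and 5790804 in spb75 replicates 1 and 2, with a median of 33, 47 and 28 reads per peak. Levels are given as normalised reads, the reads on a peak divided by its width, rescaled to the mean peak width of 71.0 bp and adjusted for depth between libraries. A log2 ratio is log2 of (normalised reads + 1) in spb80 minus the mean of the same in the spb75 libraries, and the gap is the absolute log2 difference between the 2 spb75 libraries. A difference is reported only where the log2 ratio is larger than the gap. The 8274 peaks left after dropping the 25% with the lowest mean were tested with limma, which takes the spread of a peak mostly from other peaks of similar level. With 1 library of spb80, a difference of strain cannot be told apart from one of culture or library, and the labels do not say whether the spb75 libraries came from separate cultures, so p-values measure only the spread between these samples.

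The 2 libraries labelled spb75 at 30 °C were not alike everywhere. Over 13 neighbouring peaks at I:2935201-2939735, a stretch of 4535 bp that holds cbm1 and the non-coding genes SPNCRNA.3327 and SPNCRNA.862, spb75 replicate 2 held 2.14 reads in all and 0 reads at 12 of the peaks. The library after 7 days at 37 °C, also labelled spb75, held 12.6 reads there. Replicate 1 of spb75 held 1390 reads, spb80 held 911, dcr delta 441 and spb75 after 8 hours at 37 °C 231, with no peak at 0 in any of these 4. Among runs of at least 3 neighbouring peaks with 3 reads or fewer in a library and 10 or more in another, a search added after seeing the data, this was the longest run in any of the 5 wild-type libraries. Where the gap exceeds the ratio, as at peaks of this kind, a peak is not counted below as 4-fold or 2-fold apart; the counts by p alone do not use the gap. The labels do not say whether the libraries labelled spb75 go back to 1 stock, so results are also given against each spb75 library alone where they rest on both.

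At an adjusted p of 0.05 (limma, Benjamini-Hochberg), 7 peaks in 5 genes were lower in spb80, 0.0846% of those tested, and 0 were higher. At an unadjusted p of 0.05 the counts were 337 lower (4.07%) and 206 higher (2.49%). By size alone, 92 peaks (1.11%) were at least 4-fold lower in spb80 and beyond the gap, and 38 (0.459%) were at least 4-fold higher. When reads were summed over the peaks of each gene, 0 of 2960 genes passed limma in either direction, with 74 lower (2.5%) and 80 higher (2.7%) at an unadjusted p of 0.05, while 10 genes (0.338%) were 4-fold lower and 12 (0.405%) 4-fold higher beyond the gap. The peaks past the test were short stretches of a gene, and its other peaks often did not follow. Against spb75 replicate 1 alone the 7 log2 ratios ran from −6.44 to −3.43, and against replicate 2 alone from −5.70 to −3.35.

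**Figure D1:**
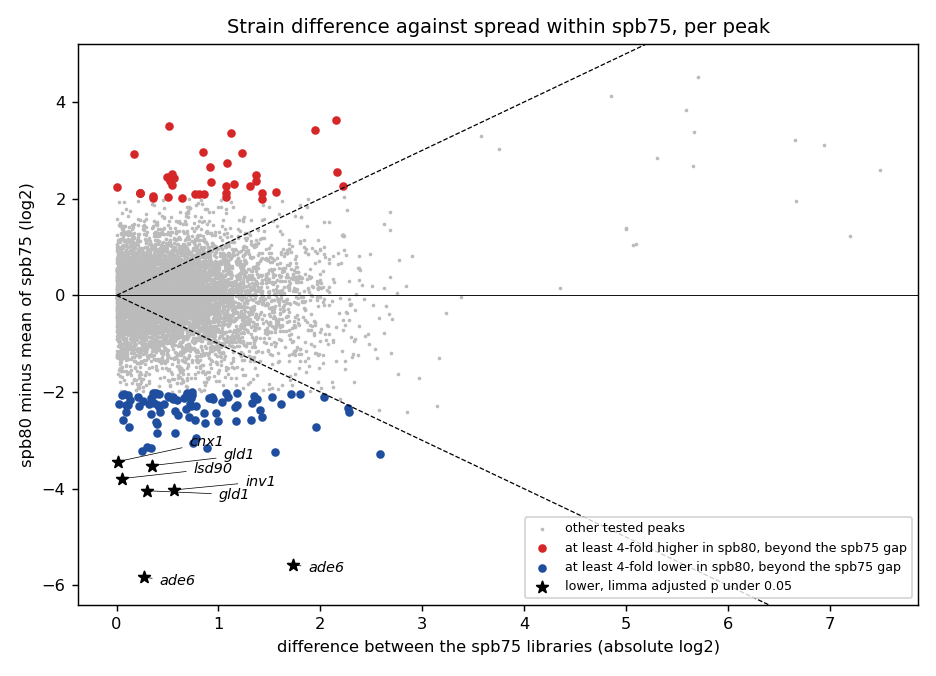
Log2 ratio of spb80 to the mean of spb75 (y axis) against the absolute log2 difference between the spb75 libraries (x axis) for the 8274 tested peaks, 1 point each; dashed lines mark where the ratio equals the gap. The 7 peaks past limma, marked with stars and gene names, lie below −3.4 on the log2 scale, and of the 16 points at a gap above 4, 11 lie in the stretch of chromosome I that lacks reads in spb75 replicate 2.

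The peaks that carried the difference are printed here on the strand of the gene's own mRNA, in assembly ASM294v3, with the peak in capitals and 10 flanking bases on each side in lower case. The first 6 are those past the test that lie in coding sequence, and the thi2 peak had the largest ratio in the other direction.
ade6, III:1317308-1317340: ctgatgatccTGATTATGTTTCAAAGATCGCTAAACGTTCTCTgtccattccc
ade6, III:1317869-1317910: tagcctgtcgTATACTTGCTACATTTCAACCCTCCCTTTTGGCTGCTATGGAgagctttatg
gld1, I:2175987-2176028: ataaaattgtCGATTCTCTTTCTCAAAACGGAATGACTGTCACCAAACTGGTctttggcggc
gld1, I:2175305-2175343: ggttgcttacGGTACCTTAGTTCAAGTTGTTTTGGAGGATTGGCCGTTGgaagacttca
inv1, III:1725938-1725967: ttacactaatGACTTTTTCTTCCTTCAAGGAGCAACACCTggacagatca
lsd90, II:1948329-1948351: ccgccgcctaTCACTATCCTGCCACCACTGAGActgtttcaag
thi2, II:3941130-3941180: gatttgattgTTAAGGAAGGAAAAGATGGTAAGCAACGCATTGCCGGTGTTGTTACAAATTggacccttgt
Each of the 7 printed peaks occurs once in the genome, and none of its 18-base words occurs elsewhere, so its reads are not shared with a gene copy. The list names no strand, so sense and antisense fragments are counted together.

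The largest differences were in ade6, which encodes phosphoribosylaminoimidazole carboxylase of purine synthesis. Its mutants accumulate a red pigment, which made it a common marker and reporter gene in this yeast. The first ade6 peak printed above held 30.3 normalised reads in spb80 against 2722 and 819 in spb75 replicates 1 and 2. Both spb75 libraries were far above spb80, the mean by 58.5-fold, although they also differed from each other by 1.73 on the log2 scale. The log2 ratio was −5.58 (SE 0.69, limma adjusted p = 0.0126). This stretch also lies on the non-coding gene SPNCRNA.7311, and the 2 transcripts cannot be told apart without strand.

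The second ade6 peak, near the end of the coding sequence, held 0 reads in spb80 against 60 and 30.5 reads in spb75, which is 61.6 and 50.9 normalised reads. The floor of 3 reads in spb80 makes the spb75 mean at least 13.4-fold higher (limma adjusted p = 0.0448). This call was lost with TMM scaling over the 3 libraries compared, with a pseudocount of 10 and with the added 8 kept, and its limma adjusted p ranged from 0.0093 to 0.41 over the alternatives. Directly downstream the difference shrank and then ended. At III:1317914-1317972 the levels were 26.4 normalised reads in spb80 against 86.9 and 84.9 (log2 ratio −1.67, adjusted p = 0.44), and at III:1317973-1318024 they were 170 against 106 and 143 (log2 ratio 0.46). The difference in ade6 was thus limited to stretches of the gene, and the sum over its 4 peaks, 161 in spb80 against 1452 and 587, gave a log2 ratio of −2.52 (SE 0.53, limma adjusted p = 0.58 over genes).

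Other marker and mating-type genes held no such peak. Of the 56 tested peaks in these genes, 2 were lower past limma, both in ade6, 0 were higher, and the median log2 ratio was 0.04 beside 0.00 over all tested peaks (−0.26 beside −0.30 when scaled by total reads). A peak was found in 16 of the 34 listed genes that the annotation names, and ura4 held none. The 6 peaks of leu1, a leucine synthesis gene, had log2 ratios from −0.43 to 0.53, and the 4 of his1 from −0.10 to 0.17. In trp1 the most negative of 6 peaks held 45.4 normalised reads in spb80 against 131 and 76.4 (log2 ratio −1.12, adjusted p = 0.75). In ste11, which encodes the transcription factor that starts mating, the 4 ratios were 0.46 to 1.54, with none past the test. The most negative ratio outside ade6 was that of a lys3 peak at I:531223-531277 with 56.6 normalised reads in spb80 against 142 and 136 (log2 ratio −1.28, adjusted p = 0.63).

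Low peaks past the test lay also in gld1. Glycerol dehydrogenase, encoded by gld1, starts the route by which fission yeast uses glycerol. Its peak at I:2175987-2176028 held 35.0 normalised reads in spb80 against 657 and 533 in spb75 (log2 ratio −4.04, SE 0.53, limma adjusted p = 0.0126). The peak at I:2175305-2175343 held 16.6 against 227 and 178 (log2 ratio −3.52, SE 0.52, adjusted p = 0.0220). In both, the spb75 libraries lay close together and spb80 stood apart, at 17.0-fold and 12.2-fold below their mean. Another peak, at I:2175066-2175103, missed the threshold at an adjusted p of 0.0565, with 52.6 in spb80 against 521 and 424. The first peak of the gene, in contrast, held 309 in spb80 against 99.8 and 337, inside the range of spb75. Summed over its 5 peaks, gld1 held 431 against 1060 and 1231 (log2 ratio −1.40, SE 0.34, limma adjusted p = 0.70 over genes).

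Another gene of glycerol use, gut2, was picked after its values were seen. In this gene, which encodes the glycerol-3-phosphate dehydrogenase of glycerol breakdown, 3 of 7 peaks were at least 4-fold lower and beyond the gap, and none passed the test. The largest of these, at III:1842044-1842086, held 43.0 normalised reads in spb80 against 197 and 230 (log2 ratio −2.28, adjusted p = 0.21). The peak nearest the gene start held 274 against 66.5 and 234, so gut2, like gld1, was not low in spb80 at its first peak.

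External invertase, which cleaves sucrose outside the cell, is encoded by inv1. Its peak at III:1725938-1725967 held 9.79 normalised reads in spb80 against 144 and 212 in spb75 (log2 ratio −4.03, SE 0.54, limma adjusted p = 0.0126), an 18.2-fold difference that rests on 5 reads in spb80 and 100 and 91 in spb75. The next peak, at the gene's 3′ end, held 25.9 against 289 and 171 (log2 ratio −3.05, adjusted p = 0.0827). Of the first 4 peaks of the gene 3 lay between the spb75 values, as at III:1724347-1724384, where spb80 held 89.7 against 30.6 and 164. The last 3 of its 7 peaks were all below both spb75 libraries.

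The last 2 low peaks lay in lsd90 and cnx1. The only tested peak of lsd90 held 12.8 normalised reads in spb80, from 5 reads, against 193 and 186 in spb75 (log2 ratio −3.79, SE 0.52, limma adjusted p = 0.0126). Its 3 other peaks were too low to be tested, at 0 to 4.79 in spb80 and 4.07 to 22.8 in spb75, and there too spb80 was below both spb75 libraries. In cnx1, which encodes the endoplasmic reticulum chaperone calnexin, a peak in the untranslated region at I:2086518-2086567 held 25.9 in spb80 against 289 and 291 (log2 ratio −3.44, SE 0.51, adjusted p = 0.0220). No other peak of cnx1 was 4-fold lower. The peak at its start held 938 in spb80 against 511 and 609, and the sum over its 13 peaks, 2092 against 2296 and 2010, gave a log2 ratio of −0.04.

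**Figure D2:**
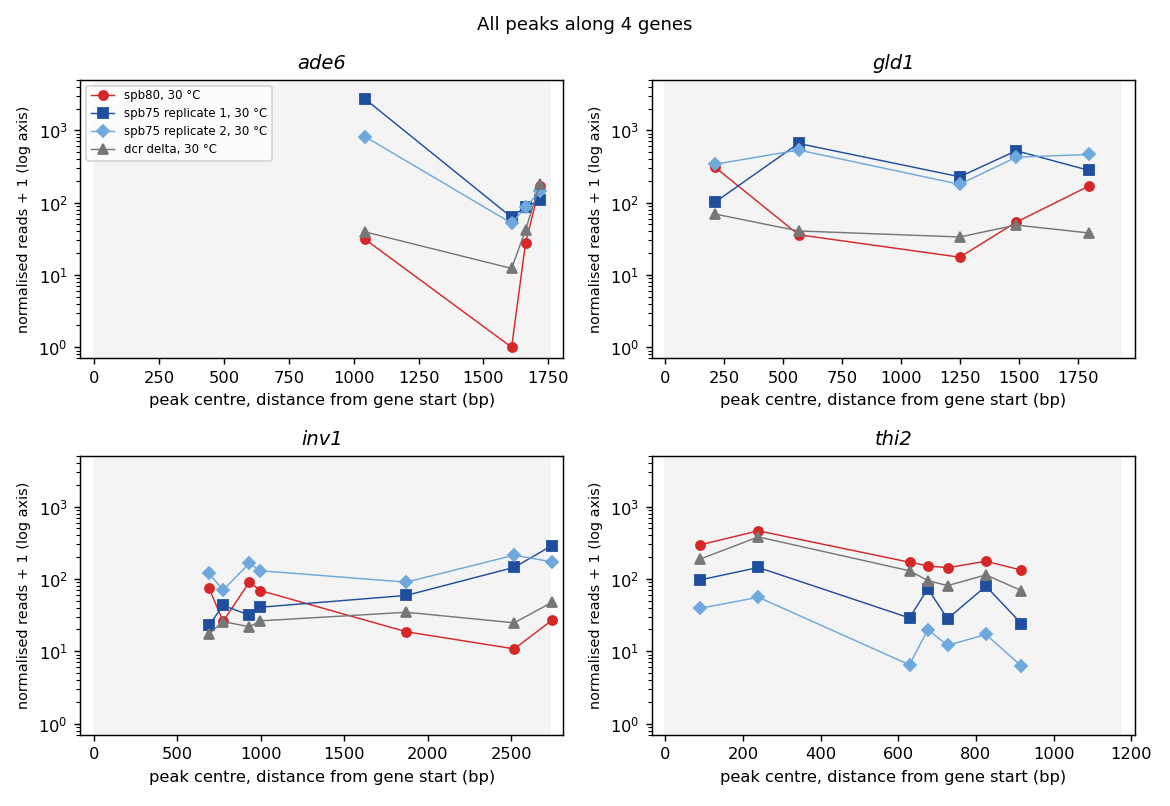
Normalised reads + 1 (y axis, log scale) at the centre of each peak against distance from the gene start (x axis, bp) in ade6, gld1, inv1 and thi2, with 1 point per peak and library; the shaded span is the annotated gene and lines join the peaks of a library. In the first 3 genes spb80 leaves the spb75 libraries at some peaks only, and in thi2 it lies above both at all 7.

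In every one of the 7 low peaks the library labelled dcr delta also held few reads. It held 38.4 and 11.3 normalised reads at the ade6 peaks, 39.6 and 32.5 at the gld1 peaks, 23.7 at inv1, 34.4 at lsd90 and 33.2 at cnx1. Elsewhere in these genes dcr delta did not always follow spb80. At the first gld1 peak it held 68.6 against 309 in spb80, and at III:1724347-1724384 in inv1 20.8 against 89.7. At III:1317973-1318024 in ade6, in contrast, dcr delta held 178 against 170 in spb80. The spb75 library after 8 hours at 37 °C held 3589 and 108 at the ade6 peaks and 889 and 298 at the gld1 peaks. After 7 days at 37 °C, spb75 held 1890 and 74.7 at ade6 but 142 and 67.1 at gld1 and 38.4 at inv1. All 4 spb75 libraries thus lay above spb80 at all 7 peaks. From which wild-type strain spb309 was made is not given in the sources used here, so at these peaks the deletion and the strain cannot be told apart. The deposited columns of spb80 and dcr delta share one further property, an added 8 that the other columns lack and that was subtracted here.

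**Figure D3:**
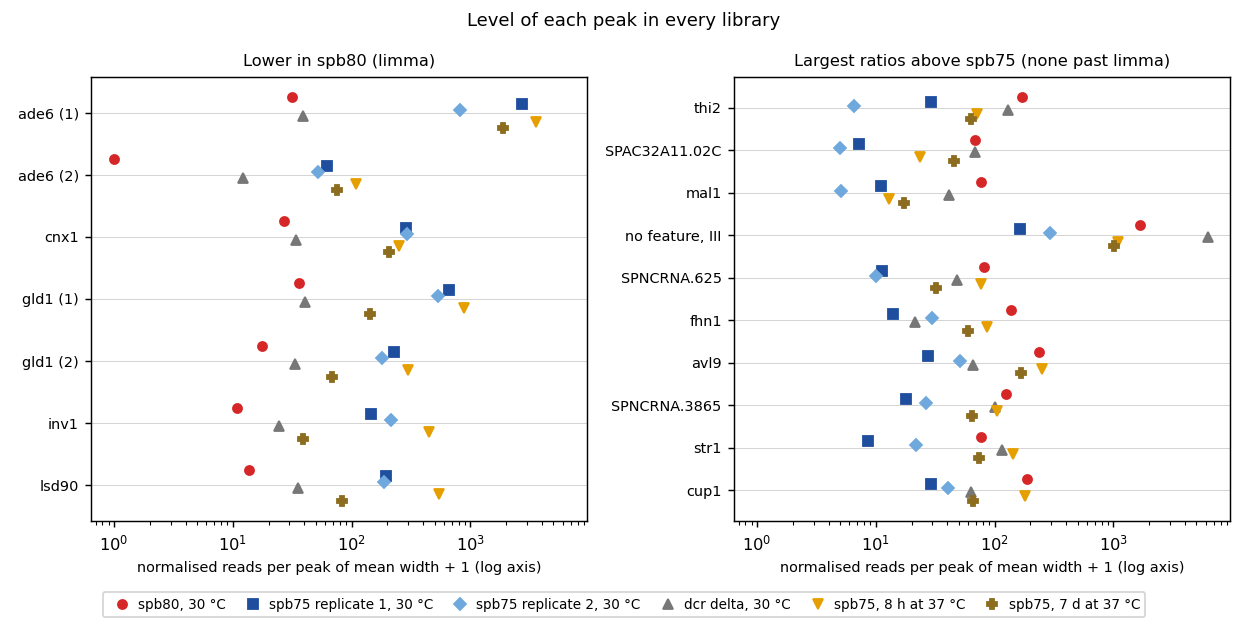
Normalised reads + 1 (x axis, log scale) in all 6 libraries for the 7 peaks lower in spb80 by limma (left) and the 10 largest ratios above spb75 (right, none past limma), 1 symbol per library; where a gene has 2 peaks they are numbered along the gene. On the left spb80 and dcr delta hold the lowest values, and on the right spb80 lies above both spb75 libraries at 30 °C.

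Among others, the following genes held more than 1 of the 92 peaks that were at least 4-fold lower, with those past the test counted in. They were picked after their values were seen, and the tally is not complete. Besides gld1 (3 of 5 tested peaks) and gut2, the uncharacterised gene SPAPB24D3.07C held 3 of 10. Pairs of such peaks lay in ade6 (of 4), ams2 (of 4), cti1 (of 6), ctt1 (of 13), ddr48 (of 6), inv1 (of 7) and mtf2 (of 7).

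Single peaks filled the list of the largest decreases. In SPCC737.04, an uncharacterised gene, the values were 3.67 normalised reads against 110 and 17.5 (log2 ratio −3.28, gap 2.59). In rpl901, one of a pair of genes for ribosomal protein L9, they were 154 against 2532 and 858 (log2 ratio −3.25, gap 1.56), and none of the 18-base words of this peak is shared with its partner gene. In SPCC1739.08C, annotated as a dehydrogenase, they were 5.04 against 50.5 and 60.0, and in SPBC9B6.11C, of the CCR4 and nocturin family, 7.58 against 86.2 and 49.7. The SPBC9B6.11C peak also lies on the non-coding gene SPNCRNA.5374. All 4 had adjusted p-values of 0.19 to 0.39, and in the first and second of them the spb75 libraries were far apart as well.

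The stress genes on the list included the antioxidant enzymes. Over 85 tested peaks the median log2 ratio was −0.18, with 56 below 0 and 29 above, but it was 0.16 against spb75 replicate 1 and −0.66 against replicate 2, so the median does not exceed the difference between the spb75 libraries. Of these peaks 15 were at least 2-fold lower and beyond the gap, 17.6% against 7.32% of all tested peaks, and 1 was 2-fold higher, against 4.87% of all. None passed limma. The 15 lower peaks lay in 7 genes. Catalase, encoded by ctt1, held 48.1 normalised reads in spb80 at III:57140-57194 against 270 and 202 (log2 ratio −2.26, adjusted p = 0.21), and its 13 peaks summed to 557 against 1152 and 1115. Glutathione peroxidase, encoded by gpx1, held 7.58 at II:2789254-2789284 against 55.6 and 104 (log2 ratio −3.17, adjusted p = 0.15). The peroxiredoxin gene pmp20 held 41.8 at its lowest peak against 152 and 195, and zym1, for the metal-binding protein metallothionein, 33.4 against 102 and 98.7. Heat shock and chaperone genes had a median of −0.03 over 103 peaks, at 0.21 against spb75 replicate 1 and −0.12 against replicate 2. Of these peaks 7 (6.80%) were 2-fold lower and beyond the gap and 1 (0.97%) was 2-fold higher, against 7.32% and 4.87% of all.

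No peak was higher in spb80 past the test, and the largest ratios were in thi2. This gene encodes the enzyme that makes the thiazole part of thiamine, vitamin B1, and is known to be repressed when thiamine is supplied. At the printed peak the levels were 169 normalised reads in spb80 against 27.9 and 5.49 in spb75 (log2 ratio 3.64, gap 2.15, limma adjusted p = 0.20). This peak also lies on the non-coding gene SPNCRNA.6357. The fhn1, str1 and cup1 peaks named below likewise lie on SPNCRNA.4755, SPNCRNA.5783 and SPNCRNA.5535. Without strand, the transcripts at these peaks cannot be told apart. All 7 peaks of thi2 were above both spb75 libraries, and for 6 of them the log2 ratio to the mean of both was at least 4-fold and beyond the gap. At II:3940713-3940818, the richest, spb80 held 462 against 143 and 54.8. Summed over the gene the levels were 2104 against 644 and 226 (log2 ratio 2.46, SE 0.58, limma adjusted p = 0.64 over genes). The spb75 libraries themselves differed by 1.51 on the log2 scale in this sum. At the printed peak dcr delta held 129, while spb75 after 8 hours and 7 days at 37 °C held 69.9 and 62.6. This order did not hold at every peak of thi2. At II:3941184-3941220 dcr delta held 94.1 against 146 and 113 in spb75 after 8 hours and 7 days at 37 °C, with 151 in spb80.

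Genes that bring sugars and metals into the cell held ratios of both signs. Of 98 tested peaks in genes of sugar, phosphate, iron, thiamine and amine uptake and use, 9 were 4-fold higher, 6 of them in thi2. On the other side 3 were 4-fold lower, 2 of them in inv1, and the inv1 peak described above was the only one past limma. Over all tested peaks the shares were 0.459% higher and 1.11% lower. The median log2 ratio of the 98 peaks was 0.26, and −0.045 when scaled by total reads. It was 0.43 against spb75 replicate 1 and 0.06 against replicate 2. In mal1, which encodes the maltase alpha-glucosidase, one peak held 76.0 normalised reads in spb80 against 10.1 and 4.12 (log2 ratio 3.35), from 12 and 3 reads in spb75, and another held 15.2 against 37.5 and 37.6. The siderophore-iron transporter gene str1 held 76.4 against 7.54 and 21.0, and the ferric reductase gene frp1 held 118 against 33.5 and 23.4 (log2 ratio 2.04). Hexose transporter genes went both ways. The single peak of ght6 held 301 against 83.3 and 89.1 (log2 ratio 1.79), while a peak in the untranslated region of ght4 held 51.3 against 475 and 210 (log2 ratio −2.60, adjusted p = 0.21). The copper transporter gene ctr4 held 59.4 against 205 and 209 (log2 ratio −1.78).

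Further peaks above spb75 lay in SPAC32A11.02C, SPNCRNA.625, fhn1, avl9, SPNCRNA.3865 and cup1, with log2 ratios of 2.46 to 3.51 and adjusted p-values of 0.20 to 0.37. In the non-coding gene SPNCRNA.625 the levels were 80.5 normalised reads against 10.4 and 9.08, with the spb75 libraries nearly equal. In SPAC32A11.02C the other of its 2 peaks held 110 against 703 and 244 (log2 ratio −1.91). The gene's sum, 103 against 449 and 157 (log2 ratio −1.36), did not exceed its gap of 1.51. In fhn1, which encodes a protein of eisosomes (furrows of the plasma membrane), the levels were 135 against 13.0 and 28.8, while another of its 11 peaks was below both spb75 libraries (log2 ratio −1.63). In avl9 they were 235 against 26.3 and 50.3. The avl9 peak, I:2523308-2523371, ends where the annotated end of ddr48 begins, and ddr48 went the other way, with 14.5 against 79.6 and 84.9 at I:2523495-2523579 (log2 ratio −2.42, adjusted p = 0.21) and all 6 of its peaks below 0. Long non-coding RNA genes made up 7 of the 38 peaks at least 4-fold higher (18.4%) and 0 of the 92 at least 4-fold lower, against 414 of the 8274 tested peaks. For the 347 tested peaks of such genes outside the pericentromeric repeats, subtelomeres and silent mating-type region, the median log2 ratio was 0.20. Its sign depended on the library, at −0.14 against spb75 replicate 1 and 0.43 against replicate 2.

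One of these regions had no annotated feature but carried a ribosomal sequence, printed here on the forward strand of the assembly, with the peak in capitals.
No feature, III:814777-814936: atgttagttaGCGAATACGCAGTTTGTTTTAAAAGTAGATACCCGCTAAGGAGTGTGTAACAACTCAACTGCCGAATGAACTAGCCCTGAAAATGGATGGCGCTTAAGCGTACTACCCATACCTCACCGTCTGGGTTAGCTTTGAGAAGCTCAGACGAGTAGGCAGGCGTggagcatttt
Of its 160 bases, 127 lie in 18-base words shared with the annotated 28S rRNA genes SPRRNA.47, SPRRNA.48 and SPRRNA.49, so its reads may be shared with them. It held 1692 normalised reads in spb80 against 161 and 291 in spb75 (log2 ratio 2.96, SE 0.59, limma adjusted p = 0.17), and 6253 in dcr delta. Another 4-fold difference came from identical repeat copies at the left end of chromosome III, at III:2067-2195 and III:12937-13065, which held equal values because reads were split among copies. Each held 903 in spb80 against 191 and 224 (log2 ratio 2.12, adjusted p = 0.29).

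Reads of rRNA genes made up 32.3% of the spb80 reads over peaks, against 23.5% and 28.0% in spb75, 25.8% ± 3.19 (SD, n = 2). The difference of 6.54 percentage points from that mean was larger than the 4.51 between the spb75 libraries. Above the higher spb75 value, that of replicate 2, the spb80 share was by 4.28 points, less than that gap. Other non-coding RNA (1.90% against 1.51% and 1.73%) and the subtelomeres (0.151% against 0.223% and 0.197%) lay outside the spb75 values and differed from the spb75 mean by more than their gap, although other non-coding RNA was above the higher spb75 value by less than that gap. Wilson 95% intervals of these shares are narrow, 32.28 to 32.33% for rRNA in spb80, but they cover counting error only, as these are PCR reads without molecular identifiers. Pericentromeric repeats, the main known source of Dicer products, took 17.9% of reads in spb80, between 22.7% and 16.3% in spb75. The median log2 ratio of the 41 pericentromeric peaks was 0.24 (−0.07 when scaled by total reads), at −0.08 against replicate 1 and 0.78 against replicate 2. The wide peaks at the borders of centromere III overlap lysine tRNA genes and were counted as tRNA, not among these 41. The peak at III:1069488-1071259 held 5310 normalised reads in spb80 against 2407 and 177 in spb75, with 197 in dcr delta. Its counterpart at III:1139504-1142285 held 8460 against 2987 and 249, with 370 in dcr delta. Both were above either spb75 library, but the spb75 libraries were further apart than that. The share of tRNA, 33.6%, also lay between the spb75 values of 39.1% and 31.9%, as did that of protein-coding genes, 13.4% against 12.4% and 21.0%. The tRNA share includes the border peaks above, with 160120 and 400480 reads in spb80. They held 98981 and 192800 reads in spb75 replicate 1 and 4485 and 9880 in replicate 2. Without the reads of these border peaks the spb80 tRNA share would lie below both spb75 values, so its place between them rests on these peaks.

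Small nuclear and small nucleolar RNAs, which act in splicing and guide rRNA modification, were the list with the highest median. Over 59 tested peaks it was 0.69, and it was nearly the same against each spb75 library, 0.65 and 0.73, while those libraries differed by a median of 0.13. Of these peaks 50 were above 0, and 15 (25.4%) were at least 2-fold higher and beyond the gap, against 4.87% of all tested peaks. In the other direction 2 (3.39%) were 2-fold lower, against 7.32% of all. None passed limma, and 11 were higher at an unadjusted p of 0.05 (limma), against 2.49% of all tested peaks. The level of one U3 gene, snu3, which helps to process the rRNA precursor, was 294 normalised reads against 143 and 107 (log2 ratio 1.24, adjusted p = 0.65). The largest ratio was that of snR191, with 52.2 against 9.58 and 15.6 (log2 ratio 2.01), and the most negative that of a snR96 peak, with 55.1 against 225 and 131 (log2 ratio −1.62). The other snR96 peak had a log2 ratio of 0.42. The snR191 peak also lies on nog2 and SPNCRNA.847, and the snR96 peaks on tim17, so their reads may come from those genes. The spliceosomal RNA U6, encoded by snu6, was also below, with 1619 against 2932 and 2695 (log2 ratio −0.80). The size of this shift depends on scaling, since scaling by total reads over peaks lowers the median of all peaks to −0.30 and this one to 0.38, and the share of these RNAs in all reads, 0.295%, lay between 0.245% and 0.343% in spb75.

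**Figure D4:**
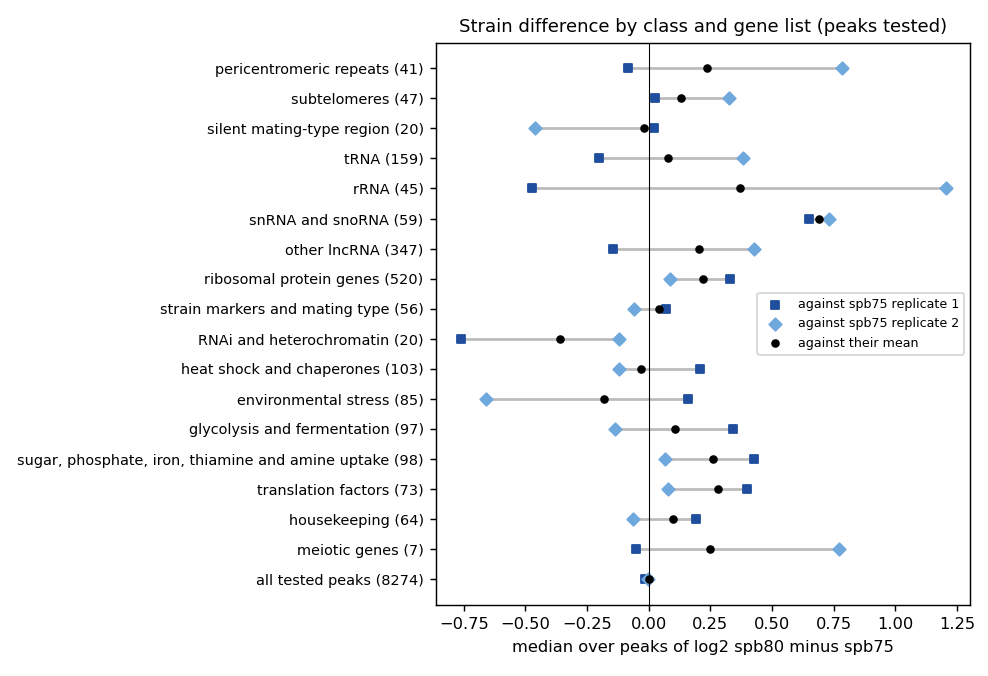
Median log2 difference of spb80 from spb75 replicate 1, from replicate 2 and from their mean (x axis) for each class of RNA or list of genes (y axis, tested peaks in brackets). The snRNA and snoRNA medians against the 2 spb75 libraries, 0.65 and 0.73, lie close together, whereas those of rRNA, −0.47 and 1.21, span 0.

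Most other lists lay near 0 or differed as much between the spb75 libraries. Ribosomal protein genes had a median of 0.22 over 520 peaks, with 0 past limma, and translation factors 0.28 over 73. Genes of RNAi and heterochromatin had a median of −0.36 over 20 peaks, at −0.76 and −0.12 against the spb75 libraries. Of these, epe1, which encodes a factor that limits the spread of heterochromatin, held 69.3 normalised reads against 200 and 141 at III:1431277-1431343 (log2 ratio −1.27, adjusted p = 0.64). Glycolysis and fermentation genes (0.11), housekeeping genes (0.10), subtelomeres (0.13) and the silent mating-type region (−0.02) completed the lists, and none held a peak past limma. For 7 tested peaks in meiotic genes the median was 0.25. Against spb75 replicates 1 and 2 taken alone, the medians were 0.34 and −0.14 for glycolysis and fermentation, 0.19 and −0.06 for housekeeping, 0.02 and −0.46 for the silent mating-type region and −0.05 and 0.77 for meiotic genes, so their signs depended on the library. Scaling by total reads lowers the median of all peaks to −0.30, and with it each positive median of this paragraph falls below 0.

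The width of a peak moved with its ratio. Tested peaks were divided by width into 5 groups of equal size. The median log2 ratio was −0.24 in the narrowest group (18 to 38 bp), −0.08, 0.03 and 0.07 in the next, and 0.17 in the widest (91 to 3517 bp). Against spb75 replicate 1 alone it ran from −0.30 to 0.16 and against replicate 2 alone from −0.24 to 0.13, while the spb75 libraries differed from each other by a median of at most 0.03 in any group. Of the 92 peaks at least 4-fold lower, 50 were in the narrowest group and 5 in the widest. Of the 38 higher, 9 and 8 were. The 7 peaks past the test had a median width of 39 bp against 55 bp for all tested peaks, and all 7 were still past it when ratios were centred within peaks of similar width, an alternative chosen after seeing the data.

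**Figure D5:**
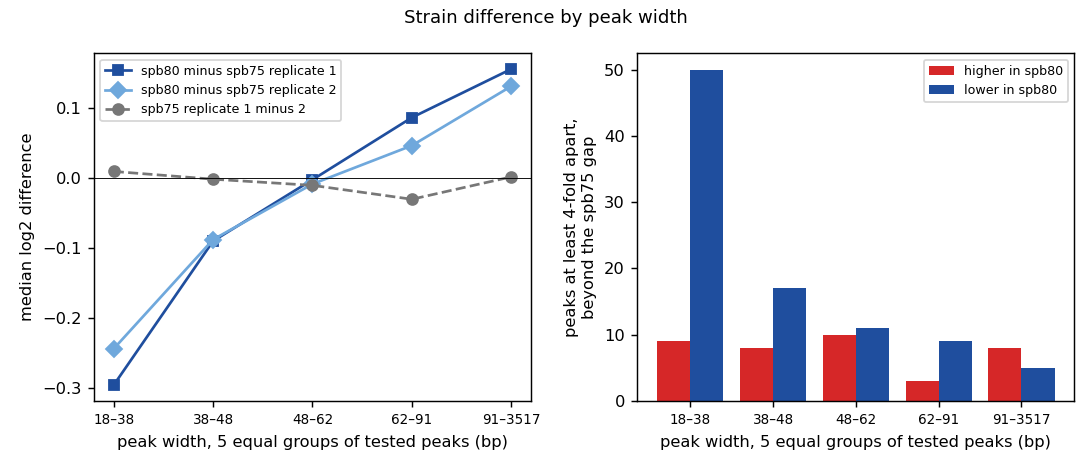
Left, median log2 difference (y axis) for 5 equal groups of the tested peaks by width (x axis, bp) between spb80 and each spb75 library and between the spb75 libraries; right, number of peaks at least 4-fold apart and beyond the gap in each group. Both strain lines climb with width, from −0.30 and −0.24 to 0.16 and 0.13, while the line within spb75 stays within 0.03 of 0, and 50 of the 92 low peaks fall in the narrowest group.

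The calls depended on scaling and on how the spread was estimated. All 7 were kept with median-of-ratios scaling, with no filter and with width centring. Scaling by total reads kept 3, both ade6 peaks and inv1. Keeping the added 8 in the spb80 column kept 2, the first ade6 peak and the gld1 peak at I:2175987-2176028. A constant prior variance kept 1, the second ade6 peak.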

How the data were processed

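Per the labels, RNA of 18 to 28 nt from cells in YES medium was sequenced after TruSeq small RNA preparation. Tools named in the submitters' processing notes are CASAVA 1.8, Bowtie 0.9.9.1 and MACS. Settings and build: not given in the sources used here. Per its values, the deposited signal is reads times the mean peak width (71.0 bp) divided by the width of the peak, with an added 8 in the spb80 and dcr delta columns, which was subtracted. In the dcr delta column a read counted as a step of 1.48 rather than as a whole read, and that column was divided by this step. Of the values of spb80 and spb75 replicates 1 and 2, 83.3%, 92.4% and 86.8% fell within 0.01 of a whole read and most others on 1/2 or 1/3 read, so a count test was not used. Every sample column was mapped.

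Peaks were placed on RefSeq assembly ASM294v3 by an overlap of at least 1 bp; a peak lay on 212 of 243 genes for tRNA, snRNA or snoRNA, but on 38 to 60 with peaks shifted by 200 to 2000 bp. Signal was scaled with trimmed-mean (TMM) factors over 6 libraries (30% of ratios and 5% of means trimmed). Peaks and gene sums were tested 2-sided with limma 3.58.1 (R 4.3.3), after log2(signal + 1), with a trend in the prior variance and Benjamini-Hochberg adjustment; 1 library against 2 leaves 1 residual degree of freedom beside 11.8 prior ones (6.48 for genes), and the lone library is assumed to vary like the others. Fold changes on this scale understate low peaks. Means of spb75 are over 2 libraries. Intervals and the floor of 3 reads cover counting error only.

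Named peaks are the 10 largest ratios in each direction (those past limma first, then those at least 4-fold and beyond the gap with 50 normalised reads in the higher strain; 1 per gene or per 1000 bp), the 3 richest of each list, all peaks of marker genes and genes past limma. Members and lists were chosen with earlier results of these data known. Alternatives covered scaling, pseudocount, filter, the added 8, the prior variance, the fold rule and leaving out a spb75 library. One gene with peaks lower in spb80 is not reported here.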

Additional observations from a re-analysis of the deposited data

How the results depend on the processing

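With 7 peaks lower by limma as reported, scaling by total reads gave 3, keeping the added 8 gave 2 and a constant prior variance gave 1; median-of-ratios factors, TMM over 3 libraries, a pseudocount of 10, no filter and width centring gave 6 or 7, all of them among the 7; the second ade6 peak was the one lost with TMM over 3 libraries and with a pseudocount of 10. Total-read scaling gave 1 higher gene where 0 were reported. The number of peaks at least 4-fold higher and beyond the gap, 38, became 18 with total-read scaling, 21 with a pseudocount of 10, 69 with no filter, 25 with the added 8 kept and 403 at 2-fold; the number lower, 92, became 181, 30, 142, 53 and 606. Leaving out 1 spb75 library, which leaves 1 against 1 and no test, gave 69 to 84 higher and 97 to 193 lower. With total-read scaling, which lowers the median of all peaks to −0.30, each positive list median apart from rRNA and snRNA and snoRNA fell below 0, among them subtelomeres (0.13 to −0.17) and uptake (0.26 to −0.045); the values of these 2 with the added 8 kept were 0.0084 and 0.12, and without one spb75 library 0.024 to 0.32 and 0.064 to 0.43. Total-read scaling also moved snRNA and snoRNA to 0.38, ribosomal proteins to −0.088, translation factors to −0.027, housekeeping to −0.21 and strain markers to −0.26; the added 8 moved the first to 0.50, ribosomal proteins to −0.011 and strain markers to −0.081, and width centring moved strain markers to −0.0040. Without one spb75 library, strain markers ran from −0.059 to 0.071, the silent mating-type region from −0.46 to 0.021 and RNAi genes from −0.76 to −0.12. The cause was not tested. The 7 peaks past limma and the other largest ratios of either sign kept their direction under the alternatives run for them; marker-gene peaks were not all followed, and some near 0 turned between the spb75 libraries. No paired analysis was possible because the spb80 library carries no replicate number to match with the spb75 libraries. Depth limits the low peaks: 5 or fewer reads in spb80 stood behind those of inv1 and lsd90 and the second of ade6.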
